A study of Mus musculus with 2 samples.

Results

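The mitochondrial ribosomal protein genes were examined in YTN16 cells, which derive from a mouse gastric cancer, under RNA interference against Gas6. The members are the protein-coding genes of the deposited table whose symbol is Mrpl or Mrps followed by a number and at most 1 letter. There were 78 such genes among 45777 in the table, 49 with an Mrpl symbol and 29 with an Mrps symbol. The rule used symbols and biotype, not expression values, and all 78 members passed the expression minimum of 1 CPM (counts scaled to library size) in either library.

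The design set a culture carrying a short hairpin RNA against Gas6 (shGas6, genotype given as Gas6 knockdown) against a culture carrying a control hairpin (shControl, genotype given as WT). Both were YTN16 cells in the same medium, and each gave 1 library of poly(A)-selected, strand-marked RNA. The study asked about GAS6 and its receptor AXL in the response to immunotherapy. The labels name neither the hairpin sequences nor whether a culture was a clone or a pool, and 1 hairpin stands for the knockdown. With 1 library per group there is no spread between replicates, no test of the conditions and no p-value. Every interval below is an exact (Clopper-Pearson) 95% interval for counting error between these 2 libraries, and reads copied by PCR may make it too narrow.

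The mitochondrial ribosome makes the few proteins encoded by mitochondrial DNA, all of them subunits of the respiratory chain and ATP synthase. Its ribosomal RNAs come from the mitochondrial genome, while its proteins are encoded in the nucleus, made in the cytosol and imported. Many have counterparts in bacterial ribosomes, and others were added in the mitochondrial lineage. Symbols do not always give the subunit, since Mrps30 and Mrps18a, despite their names, sit in the large subunit. Mrps36 is now assigned to the alpha-ketoglutarate dehydrogenase complex and was kept here as a member by the rule, without a place in either subunit.

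The libraries held 51807140 counts in shGas6 and 50756676 in shControl. Gas6 had 731 counts in shGas6 and 2480 in shControl, a fold of 0.290 after scaling (0.266 to 0.315). Of 13 gastric epithelial markers, 10 were measured, with a summed level of 9283 TPM (a unit scaled to transcript length and library size) in shGas6 and 5900 TPM in shControl. Keratins made up much of this sum. Krt19 was at 4419 TPM in shGas6 and 3025 TPM in shControl, and Krt8 at 2997 TPM in shGas6 and 1970 TPM in shControl. Of the 10 markers, 7 were above 0 in log2 ratio and 3 below. Krt7 had the highest fold, with 1095 counts in shGas6 and 116 in shControl (9.28, 7.66 to 11.3). The gastric trefoil peptide gene Tff2 had the lowest, with 93 counts in shGas6 and 993 in shControl (0.0921, 0.0736 to 0.114), followed by the tight junction gene Ocln, with 102 in shGas6 and 333 in shControl, and Tff1, with 497 in shGas6 and 615 in shControl. Epcam was below the minimum, at 0.503 CPM in shGas6 and 0.629 CPM in shControl. Neither Cldn7 nor Gkn1 had a count, and a count of 0 leaves room for up to 0.0580 CPM in shGas6 and 0.0590 CPM in shControl. Leukocyte markers (2 of 10 measured) summed to 3.57 TPM in shGas6 and 2.85 TPM in shControl, with Tyrobp at 0 in both. Of the 2 measured, Laptm5 had 71 counts in shGas6 and 8 in shControl (fold 8.72, 4.2 to 21). Coro1a had 104 counts in shGas6 and 117 in shControl (0.874, 0.664 to 1.15). Stromal and endothelial markers (1 of 8 measured, Cdh5) summed to 1.89 TPM in shGas6 and 5.87 TPM in shControl, with Kdr and Lum at 0 in both. The part of these differences in the results below was not tested. In bulk RNA, fewer cells of a type and less RNA per cell cannot be told apart.

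Members of the module spanned a 19.6-fold range of TPM in shGas6 and a 19.7-fold range in shControl, and 13 of the 78 differed by more than 10 places in rank between the libraries. The median level was 68.0 TPM in shGas6 and 71.0 TPM in shControl, with a range of 13.2 to 258 TPM in shGas6 and 13.7 to 270 TPM in shControl. The quartiles lay at 45.7 and 90.5 TPM in shGas6 and at 49.8 and 99.6 TPM in shControl. Across the 78 members, the log2 TPM of the 2 libraries correlated at a Pearson r of 0.95 and a Spearman rho of 0.95, values that share gene length and library preparation. The members took 170977 counts in shGas6, or 0.3300% of the library (0.3285% to 0.3316%), and 192513 counts in shControl, or 0.3793% (0.3776% to 0.3810%). Their summed TPM was 5991 in shGas6 and 6651 in shControl.

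Mrpl12, the subunit of the stalk that contacts the translation factors, was the most abundant member per length in both libraries, at 258 TPM in shGas6 and 270 TPM in shControl. Its log2 ratio was -0.12, and its fold was 0.923 (0.892 to 0.955). Mrpl52, a mitochondria-specific subunit, came second at 243 TPM in shGas6 and 242 TPM in shControl, and its counting interval held 1. Mrpl13, a homologue of a bacterial large subunit protein, was at 234 TPM in shGas6 and 204 TPM in shControl. Mrpl33 was at 177 TPM in shGas6 and 237 TPM in shControl, and the small subunit protein Mrps21 at 181 TPM in shGas6 and 218 TPM in shControl. At the low end, Mrpl41 had 16.8 TPM in shGas6 and 13.7 TPM in shControl, Mrpl17 had 15.9 TPM in shGas6 and 15.2 TPM in shControl, and Mrpl1 had 13.2 TPM in shGas6 and 18.5 TPM in shControl. The stalk base protein Mrpl11, at 16.5 TPM in shGas6 and 21.5 TPM in shControl, and Mrps25, at 18.2 TPM in shGas6 and 22.7 TPM in shControl, completed the 5 lowest by the mean of both libraries. The log2 ratio of a member (scaled counts, shGas6 minus shControl) had a Pearson r of 0.03 and a Spearman rho of 0.02 with its mean log2 TPM over the 78 genes, a description across genes.

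**Figure D1:**
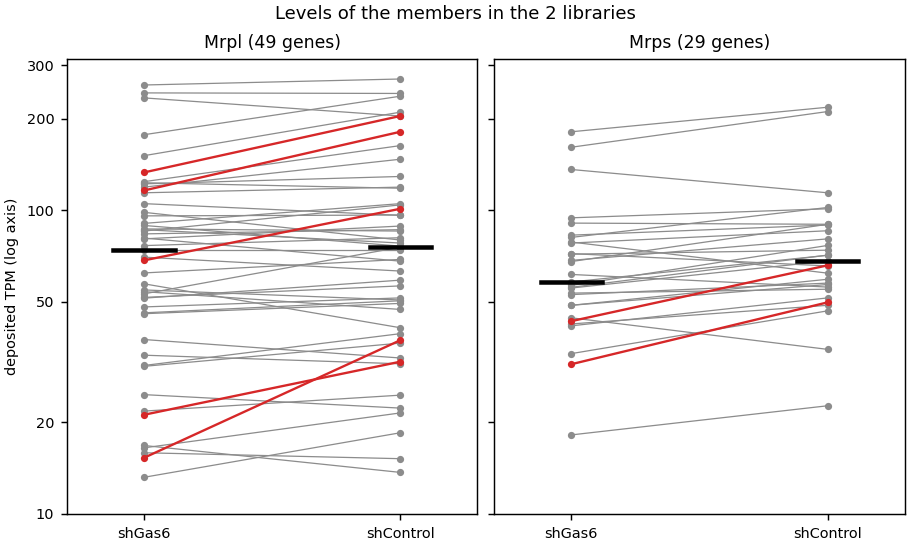
Deposited TPM (log axis) of each member in shGas6 and shControl, joined by a line, for the 49 Mrpl genes and the 29 Mrps genes; black bars are medians and red lines mark the 7 members at least 1.5-fold lower in shGas6. The Mrpl median was 74.1 TPM in shGas6 and 75.5 TPM in shControl, and the Mrps median 58.0 TPM in shGas6 and 68.0 TPM in shControl.

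Most members had a slightly lower count in shGas6 than in shControl. The median log2 ratio of the 78 members was -0.17, against -0.01 for all 13367 measured genes, and 57 of the 78 ratios lay below 0 (73.1%), against 50.9% of all measured genes. The quartiles of the member ratios lay at -0.37 and 0.02, against -0.31 and 0.35 for all measured genes. At 1.5-fold or more, 7 members were lower (8.97%, against 12.6% of all measured genes) and 0 were higher (16.1% of all). At 2-fold or more, 1 member was lower (6.21% of all) and 0 were higher (8.66% of all). The count interval lay wholly below 1 for 49 members (62.8%, against 40.3% of all measured genes), wholly above 1 for 12 (15.4%, against 39.2%), and held 1 for 17. Of the 6857 measured genes in the CPM range of the members, 51.2% were below 0 and 43% had an interval below 1, near the shares of all measured genes. At least 1.5-fold lower were 9.17% of them, fewer than the 12.6% of all measured genes. The share of members at 1.5-fold or more lower was thus close to that of genes of like expression, while the share below 0 was above it.

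Mrpl44 stood furthest apart. It encodes a mitochondria-specific large subunit protein with a fold related to ribonuclease III, and the gene (NCBI gene 69163) lies on chromosome 1 at 79776018 to 79781445 of GRCm38. It had 551 counts in shGas6 and 1363 in shControl, or 10.7 CPM in shGas6 and 26.8 CPM in shControl. The level in shGas6 was 39.7% of that in shControl (fold 0.397, 0.359 to 0.439). Per length it was at 15.3 TPM in shGas6 and 37.3 TPM in shControl, rank 77 of 78 in shGas6 and rank 66 in shControl. Its first exons overlap those of Wdfy1, which reads the other way and had 334 counts in shGas6 and 417 in shControl. Without a stated strand setting in the authors' counting, reads of the overlap cannot be assigned to 1 of these genes. Over the module, 28 members share exon bases with a gene on the other strand and 8 with one on their own strand in GENCODE M21, and their counts carry the same uncertainty.

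The other 6 members at 1.5-fold or more were lower by less than 2-fold. All 6 are homologues of bacterial ribosomal proteins, as are 46 of the 78 members. Mrpl30 had 2613 counts in shGas6 and 4345 in shControl, a fold of 0.591 (0.563 to 0.621). Mrps14 had 1586 counts in shGas6 and 2579 in shControl, a fold of 0.605 (0.568 to 0.644). Both lie on chromosome 1, Mrpl30 at 37890477 to 37898338 and Mrps14 at 160195215 to 160201186. Mrpl18, whose bacterial counterpart binds the smallest ribosomal RNA, had 2823 counts in shGas6 and 4440 in shControl, a fold of 0.625 (0.596 to 0.655). Its exons overlap those of the chaperonin gene Tcp1 on the other strand, which had 20461 counts in shGas6 and 21996 in shControl. Mrps9 had 1549 counts in shGas6 and 2397 in shControl, a fold of 0.635 (0.596 to 0.677). These 5 genes, Mrpl44 included, held the lowest ranks of the module, and 4 of them share a chromosome. Mrpl35 had 1980 counts in shGas6 and 3004 in shControl, a fold of 0.648 (0.612 to 0.686). Mrpl32, which is cut to its mature form by the mitochondrial m-AAA protease, had 1322 counts in shGas6 and 1983 in shControl, a fold of 0.655 (0.611 to 0.703). Just short of the 1.5-fold mark stood Mrpl37, with 2000 counts in shGas6 and 2896 in shControl (fold 0.679), and Mrpl42, with 2554 counts in shGas6 and 3622 in shControl (fold 0.693). For 4 of the 7 members (Mrpl44, Mrpl30, Mrps14 and Mrpl18) the whole counting interval lay beyond 1.5-fold.

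Among the small subunit symbols, the next lowest were Mrps27, Mrps36 and Mrps18c. Mrps27, a mitochondria-specific subunit, had 1588 counts in shGas6 and 2227 in shControl, a fold of 0.701 (0.657 to 0.748). Mrps36 had 1220 counts in shGas6 and 1648 in shControl, a fold of 0.728 (0.675 to 0.784). Its processed pseudogene Mrps36-ps1 had 136 counts in shGas6 and 164 in shControl, and reads of the parent gene and the copy may be split between them.

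The highest ratios were smaller in size than the lowest. Mrpl49, a mitochondria-specific large subunit protein (chromosome 19, 6053630 to 6057755), had 2489 counts in shGas6 and 1813 in shControl, a fold of 1.35 (1.27 to 1.43). Mrps6, a homologue of a bacterial small subunit protein (chromosome 16, 92058336 to 92112227), had 1544 counts in shGas6 and 1241 in shControl, a fold of 1.22 (1.13 to 1.32). Mrps6 shares an exon region with Slc5a3 on the same strand, which had 675 counts in shGas6 and 955 in shControl, so its count is uncertain. On the large subunit side Mrpl9 followed, with 3954 counts in shGas6 and 3233 in shControl, then Mrpl41, with 1025 counts in shGas6 and 853 in shControl. Mrpl34 had 1319 counts in shGas6 and 1125 in shControl, and Mrpl2 had 2318 in shGas6 and 2012 in shControl. The folds of these 4 genes, all homologues of bacterial proteins except Mrpl41, were between 1.13 and 1.20. On the small subunit side, Mrps35 had 3656 counts in shGas6 and 3109 in shControl, and Mrps31 had 1753 in shGas6 and 1499 in shControl, both mitochondria-specific and with intervals above 1. Mrps12, whose bacterial counterpart lines the decoding centre, had 1142 counts in shGas6 and 1058 in shControl, a fold of 1.06 with an interval that held 1.

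**Figure D2:**
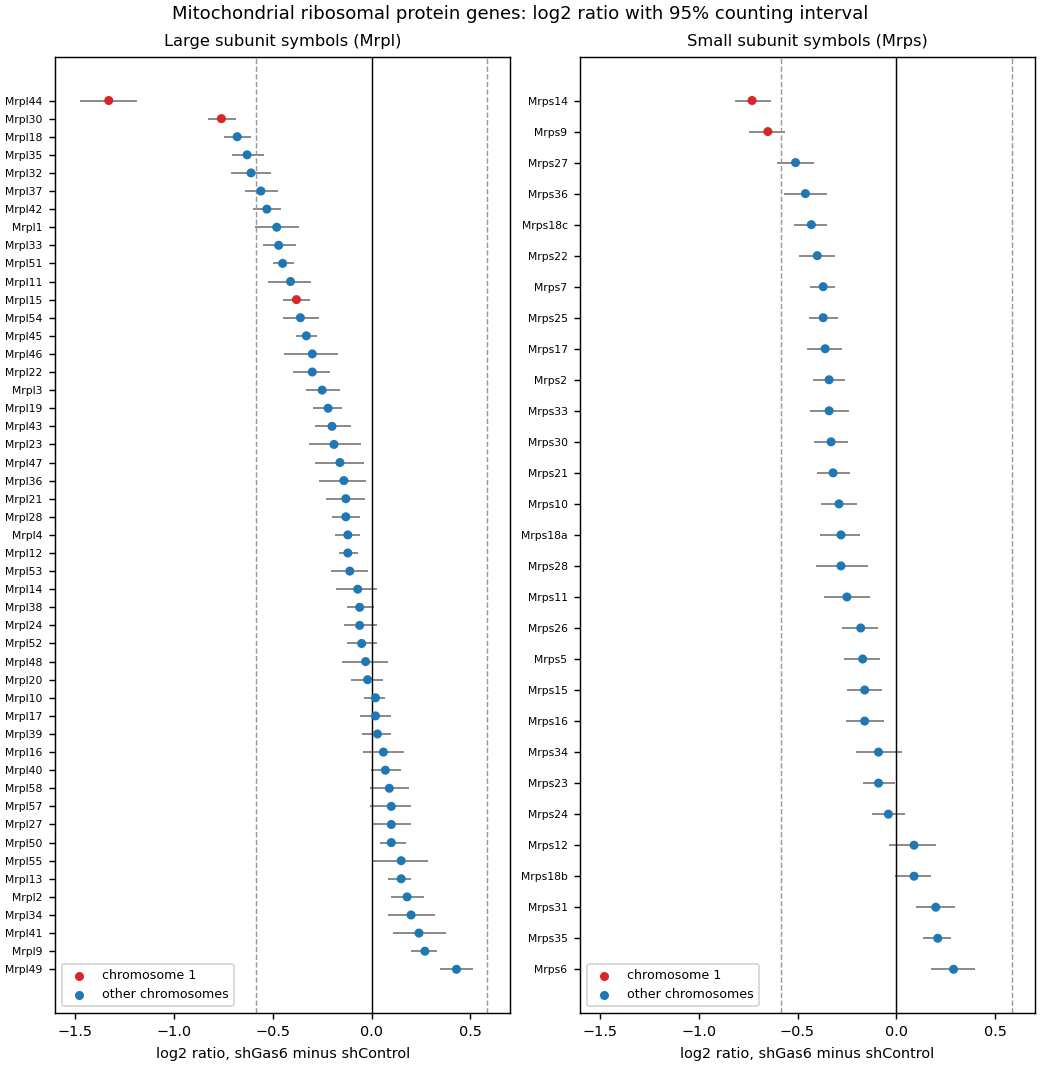
Log2 ratio of scaled counts (shGas6 minus shControl) of each member, with its 95% interval for counting error; red points are genes of chromosome 1, dashed lines mark 1.5-fold. Of the 78 members, 57 lay below 0, and Mrpl44 (-1.33) lay furthest out.

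Split by symbol, 24 of 29 Mrps genes and 33 of 49 Mrpl genes had a ratio below 0. The median log2 ratio was -0.28 for Mrps and -0.12 for Mrpl. Placed by structure, the 26 small subunit genes had a median of -0.26 and the 51 large subunit genes a median of -0.13. With 1 library per group, the difference between the subunits could not be tested. Among the small subunit genes, 16 homologues of bacterial proteins had a median of -0.28 and 10 mitochondria-specific genes a median of -0.14. In the large subunit, these medians were -0.13 over 30 homologues and -0.11 over 21 mitochondria-specific genes. The summed TPM of Mrpl over that of Mrps was 1.98 in shGas6 (3984 over 2008) and 1.93 in shControl (4379 over 2272). The median TPM of Mrpl over that of Mrps was 1.28 in shGas6 (74.1 over 58.0) and 1.11 in shControl (75.5 over 68.0), so the sums and the medians differed in how far the libraries stood apart. Placed by structure, the ratio of medians was 1.22 in shGas6 and 1.13 in shControl, a smaller gap between the libraries.

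At the functional sites of the large subunit, the stalk and the polypeptide exit were each summarised. Of the 4 stalk genes (Mrpl10, Mrpl11, Mrpl12 and Mrpl53), 3 had a ratio below 0, with a median of -0.11. Mrpl11 was lowest among them, at 1217 counts in shGas6 and 1594 in shControl, a fold of 0.751 (0.696 to 0.809). Mrpl10, which carries the Mrpl12 copies, was at 5227 counts in shGas6 and 5081 in shControl, with an interval that held 1. Of the 6 genes at the polypeptide exit, where the new chain meets the inner membrane, 5 were below 0, with a median of -0.17. Mrpl45, which anchors the ribosome to the membrane, had 5328 counts in shGas6 and 6573 in shControl, a fold of 0.797 (0.768 to 0.826).

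The 3 paralogues related to the bacterial protein bS18 differed among themselves. Mrps18c, the subunit at the bacterial position, was at 161 TPM in shGas6 and 211 TPM in shControl, a count fold of 0.741 (0.699 to 0.785). Mrps18a, which sits in the large subunit, was at 68.3 TPM in shGas6 and 80.4 TPM in shControl, a count fold of 0.821 (0.766 to 0.880). Mrps18b was at 71.9 TPM in shGas6 and 65.5 TPM in shControl, and its count fold of 1.06 had an interval that held 1 (0.997 to 1.13). Mrps18c was thus the most abundant paralogue per length in both libraries and also the lowest by ratio. Mrps30, the other large subunit protein with an Mrps symbol, had 1949 counts in shGas6 and 2412 in shControl, a fold of 0.794 (0.748 to 0.844).

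Mrpl58 is an example in which the unit matters. It encodes a large subunit protein that in human cells also acts as a peptidyl-tRNA hydrolase. Its counts were 1775 in shGas6 and 1641 in shControl, with a log2 ratio of 0.09 and an interval that held 1. Its deposited TPM was 45.9 in shGas6 and 50.3 in shControl, which points the other way.

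Ribosomal subunits without an Mrp symbol lay in the same range. Of 5 such genes (Gadd45gip1, Ptcd3, Chchd1, Dap3 and Aurkaip1), all were measured, and their median log2 ratio was -0.17. Gadd45gip1, a large subunit protein, had 3070 counts in shGas6 and 3794 in shControl, a fold of 0.795 (0.758 to 0.834). Dap3, a GTP-binding small subunit protein first described in cell death, had 5180 counts in shGas6 and 4768 in shControl, a fold of 1.07 (1.03 to 1.11). None of the 5 reached 1.5-fold in either direction, against 12.6% of all measured genes lower and 16.1% higher.

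Chromosome 1 held the members with the lowest ratios. All 5 members on it (Mrpl44, Mrpl30, Mrps14, Mrps9 and Mrpl15) were below 0, with a median of -0.73, and 4 of the 5 were at least 1.5-fold lower. Of the 782 measured genes of chromosome 1, 73.9% were below 0, 28.6% were at least 1.5-fold lower, and the median was -0.32. Without the chromosome 1 genes, the remaining 73 members had a median of -0.16, and 3 were at least 1.5-fold lower. All 5 members on chromosome 13 and all 4 on chromosome 5 were also below 0. The medians of all measured genes there were -0.28 and -0.18, with 72.7% and 62.5% below 0. All 3 members on chromosome 9 and the 2 on chromosome 10 were below 0 as well. There the medians were -0.01 and 0.06, with 50.8% and 44.7% of measured genes below 0. Members on chromosome 8 went the other way. Mrps31 and Mrpl34, the 2 members there, each had a log2 ratio of 0.20, beside a chromosome median of -0.17.

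After the median of its chromosome was subtracted from each member, 61 of 78 were below 0, with a median of -0.17. Of these, 56 were also below 0 before the subtraction and 5 were not. Of the 7 members at least 1.5-fold lower, 3 (Mrpl44, Mrpl18 and Mrpl35) were past that mark after the subtraction, and Mrpl37 and Mrpl42 newly passed it. After the median of the 50 nearest measured genes was subtracted, 61 of 78 were below 0, with a median of -0.19, and 55 of them were below 0 before. By that measure 5 of 78 members were at least 1.5-fold lower. The share of all measured genes past that mark was 12.6% before subtraction and was not computed after either subtraction. Of these 5 members, Mrpl44 (-1.16) and Mrpl18 (-0.83) were among the 7 named above, and Mrpl37, Mrpl42 and Mrps7 were not. The other 5 of the 7 fell short of the mark, with Mrpl35 at -0.57, Mrpl30 at -0.51, Mrpl32 at -0.38, Mrps9 at -0.34 and Mrps14 at -0.24. The log2 ratio of a member correlated with its chromosome median at a Pearson r of 0.54 and a Spearman rho of 0.43. With the median of the 50 nearest genes, these were 0.41 and 0.31, and 0.28 and 0.18 over the 73 members off chromosome 1. These correlations are across genes that share both libraries and are given as a description. Around Mrpl44, 31 of the 50 nearest genes were below 0 and 10 had a lower ratio than Mrpl44 itself. Its close neighbours were mixed. The ubiquitin ligase scaffold Cul3 was at 99.1 CPM in shGas6 and 183 CPM in shControl, and the fatty acid activating enzyme Acsl3 at 91.0 CPM in shGas6 and 60.4 CPM in shControl. Around Mrpl18 on chromosome 17, 16 of the 50 nearest genes were below 0, their median was 0.15, and none had a lower ratio than Mrpl18.

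**Figure D3:**
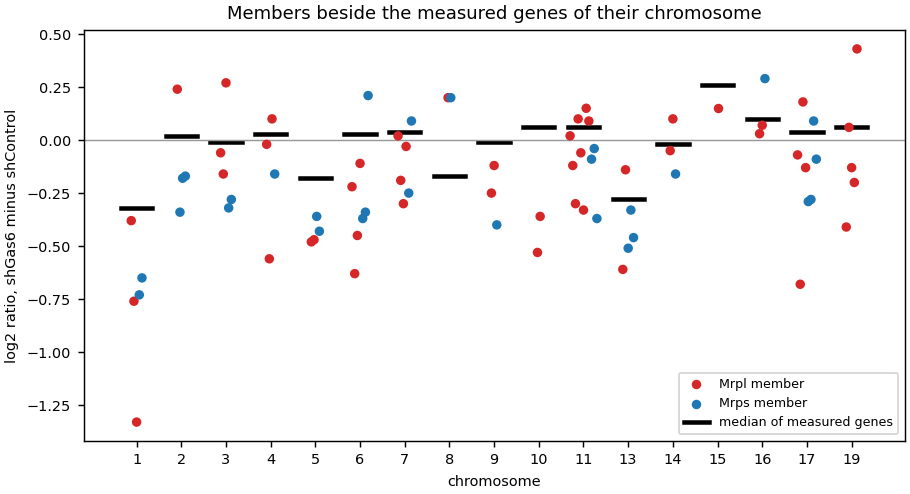
Log2 ratio (shGas6 minus shControl) of each member by chromosome, with the median of all measured genes of that chromosome as a black bar. All 5 members on chromosome 1 lay below the chromosome's median of -0.32.

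Many members have a start site near that of a gene on the other strand. In the GENCODE M21 annotation of GRCm38, 32 of the 78 members had a protein-coding partner on the other strand with a start site within 1000 bp. The share of all protein-coding genes with such a partner was not computed. In some pairs the genes read away from each other, while in others they overlap at their starts, as do Mrpl18 with Tcp1 and Mrpl48 with Rab6a. Counts of overlapping pairs carry the uncertainty named above for shared exon bases. Of 29 distinct pairs with a measured partner, 16 had ratios of the same sign in both genes, 12 of them below 0. The partners had a median log2 ratio of -0.13, against -0.01 for all measured genes. Of these 29 partners, 18 were below 0, against 50.9% of all measured genes, and 57 of all 78 members were below 0. At 1.5-fold or more, 2 partners were lower and 2 higher, against 12.6% and 16.1% of all measured genes. With most ratios below 0 on both sides, many pairs share a sign whatever the pairing, and the count was not tested. Member and partner ratios correlated at a Pearson r of 0.30 and a Spearman rho of 0.35 over these 29 pairs, a description across genes. Some pairs were close. Mrpl32 had a log2 ratio of -0.61 and its partner Psma2, a proteasome core subunit, -0.51. Mrpl51 was at -0.45 and its partner Ncapd2, a condensin subunit, at -0.54. Others were opposite. Mrpl49 was at 0.43, and its partner Fau, which encodes a cytosolic ribosomal protein fused to a ubiquitin-like domain, was at -0.31. Mrpl27 was at 0.10, and its partner Eme1, a DNA repair endonuclease subunit, at -1.03.

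In a single pair both genes are members. Mrpl46 and Mrps11 lie head to head on chromosome 7, and the RefSeq gene bodies leave 41 bases between them. Mrpl46 had 793 counts in shGas6 and 963 in shControl, a fold of 0.809 (0.736 to 0.890). Mrps11 had 1113 counts in shGas6 and 1302 in shControl, a fold of 0.840 (0.775 to 0.911). The stretch is shown because both genes start from its 2 ends, read on the plus strand toward Mrps11 (chr7:78783090-78783130, GRCm38.p6), with a GC box (GGGCGG) in capitals. Exons of the pair overlap in longer GENCODE transcripts, so their counts are not fully separate.
Mrpl46 to Mrps11: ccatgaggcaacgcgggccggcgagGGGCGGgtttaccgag

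Promoter windows from RefSeq (GRCm38.p6, 250 bases before to 50 after the start site, the first listed window of each gene) were available for 69 members and 17492 protein-coding genes. Motifs were searched on both strands as exact letters, for factors known to act on nuclear genes of mitochondrial proteins. The ETS family core CCGGAAG, read by GABP among others, was in 25 of 69 member windows (36.2%) and in 11.9% of all protein-coding windows. The YY1 motif AAGATGGCG was in 8 member windows (11.6%, against 1.94%), and the palindromic NRF1 motif in 3 (4.35%, against 1.32%). At least 1 of these 3 was in 34 windows (49.3%, against 14.5%). The ETS and YY1 letters occurred together in 2 windows, without shared bases in either. The GC box GGGCGG was in 34 windows (49.3%, against 46.3%), the CCAAT box CCAAT in 27 (39.1%, against 39%), and the E-box CACGTG in 5 (7.25%, against 7.9%). The TATA box TATAAA was in 4 (5.8%, against 13.3%). A match is a description of letters and not a bound site.

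The 8 members with the YY1 letters had a median log2 ratio of -0.40, and the 61 without them a median of -0.16. With and without the ETS core, the medians were -0.18 and -0.17. The YY1 sites are shown because all 8 of these members had a ratio below 0, against 57 of all 78 members (73.1%), a choice made after their values were seen and with no test. Mrpl36 among them was at 0.14 after subtraction of its chromosome median and at 0.27 after that of its 50 nearest genes. Each is written 5′ to 3′ on the strand of the gene, with the motif or its reverse complement CGCCATCTT in capitals.
Mrpl35 (chr6:71823743-71823771, minus strand): ggcaggctgcAAGATGGCGgcttccatct
Mrpl37 (chr4:107066822-107066850, minus strand): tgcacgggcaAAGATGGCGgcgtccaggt
Mrpl42 (chr10:95501904-95501932, minus strand): agattgaagcAAGATGGCGagcgcgcggt
Mrps27 (chr13:99344790-99344818, plus strand): ggtgcgctccAAGATGGCGgctcccatgg
Mrps18a (chr17:46111005-46111033, plus strand): ggtgcgttccAAGATGGCGgccctcaggg
Mrps11 (chr7:78783013-78783041, plus strand): ctacgggcgcCGCCATCTTtctgtcttcc
Mrpl36 (chr13:73330968-73330996, plus strand): cgtgaccttaCGCCATCTTtcttcctggc
Mrps24 (chr11:5707652-5707675, minus strand): gcgccggcccAAGATGGCGtggtc

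These sites are given in the order of the log2 ratio of the gene, with -0.63 in Mrpl35 and -0.04 in Mrps24 at the ends. In 6 of them the letters lie on the gene's own strand within the first bases of the transcript, from 12 to 37 bases after the start site. In Mrps11 and Mrpl36 they lie on the other strand and begin 108 and 31 bases before it. The window of Mrpl36 belongs to a start site inside its gene body. The letters found for Mrps11 lie inside the gene body of Mrpl46 (78775341 to 78783089) and read AAGATGGCG on its strand. They fall outside the window of Mrpl46, which was therefore counted as lacking them. The 3 members with the NRF1 letters spanned both directions, with Mrpl32 at -0.61, Mrpl39 at 0.03 and Mrpl9 at 0.27. In 8 of the 69 member windows none of the 7 motifs was found (Mrpl10, Mrpl12, Mrpl24, Mrpl30, Mrpl44, Mrpl45, Mrpl47 and Mrps2), and the ratios of these genes ran between -1.33 and 0.02.

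The cytosolic ribosomal proteins and the nuclear-encoded respiratory chain, the most similar gene groups, had medians close to that of the mitochondrial ribosomal proteins. Of 79 measured cytosolic ribosomal protein genes, 73 were below 0 (92.4%), with a median log2 ratio of -0.20 and quartiles of -0.28 and -0.11. Of 77 measured respiratory chain and ATP synthase genes, 64 were below 0 (83.1%), with a median of -0.20 and quartiles of -0.37 and -0.04. At 1.5-fold or more, 4 cytosolic ribosomal genes (5.06%) and 6 respiratory chain genes (7.79%) were lower, against 12.6% of all measured genes. None of either group was higher, against 16.1% of all measured genes. The lowest respiratory chain gene was Uqcrb, a complex III subunit, with 2902 counts in shGas6 and 5357 in shControl, a fold of 0.533 (0.509 to 0.557). The SD of the log2 ratios was 0.29 over the 78 mitochondrial and 0.17 over the 79 cytosolic ribosomal protein genes. The difference between these groups was not tested.

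**Figure D4:**
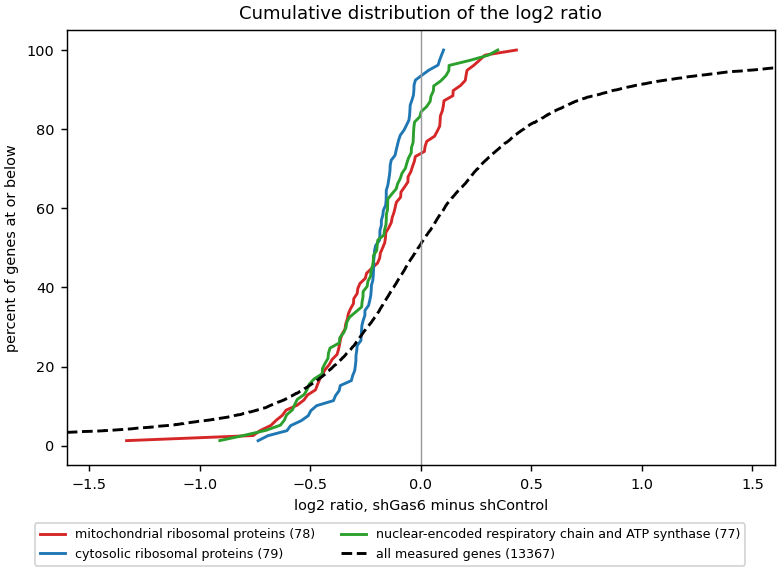
Cumulative share of genes by log2 ratio (shGas6 minus shControl) for the 78 members, 79 cytosolic ribosomal protein genes, 77 nuclear-encoded respiratory chain and ATP synthase genes and all 13367 measured genes. All 3 named groups cross 50% left of 0 (medians -0.17, -0.20 and -0.20) and are narrower than all measured genes.

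Genes that assemble the mitochondrial ribosome or modify its RNA were split. Of 26 measured, 13 were below 0 and 13 above, with a median of 0.00. At 1.5-fold or more, 1 of the 26 was lower and 3 were higher, against 12.6% and 16.1% of all measured genes. Ngrn, required for the large subunit RNA, had 1709 counts in shGas6 and 814 in shControl, a fold of 2.06 (1.90 to 2.25). Mrm1 and Mrm2, which methylate the large subunit RNA at different sites, went opposite ways. Mrm1 had 1343 counts in shGas6 and 703 in shControl, a fold of 1.88 (1.71 to 2.06), and Mrm2 had 279 counts in shGas6 and 476 in shControl, a fold of 0.576 (0.495 to 0.669). The pseudouridine synthase Rpusd4 was at a fold of 1.59 (1.49 to 1.70).

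Of 15 mitochondrial translation factors in the table, all were measured, 10 were below 0 and the median was -0.20. Mtif3, an initiation factor, stood out at 4534 counts in shGas6 and 2339 in shControl, a fold of 1.91 (1.81 to 2.0). Guf1, a back-translocating elongation factor, had 1085 counts in shGas6 and 1591 in shControl, and the release factor Mtrf1 had 339 in shGas6 and 495 in shControl. Taco1, an activator of COX1 translation, had 915 counts in shGas6 and 667 in shControl. The elongation factor Tufm, at 134 TPM in shGas6 and 149 TPM in shControl, had a fold of 0.867 (0.836 to 0.898). The 13 messages encoded by mitochondrial DNA, which these ribosomes translate, had a median of -0.14, with 9 below 0. None of the 13 was at 1.5-fold or more, against 12.6% of all measured genes lower and 16.1% higher. The lowest was ND3, at a fold of 0.777 (0.746 to 0.810), and the highest COX3, at 1.06 (1.04 to 1.07).

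Factors of mitochondrial transcription and regulators of nuclear genes for mitochondria were mostly above 0. Of 6 transcription factors and polymerase genes, 5 were above 0, with a median of 0.24, against 49.1% of all measured genes above 0. Tfb2m, which opens the mitochondrial promoter, was the exception, at 886 counts in shGas6 and 1377 in shControl, a fold of 0.632 (0.581 to 0.689). Mterf1a had 451 counts in shGas6 and 288 in shControl, a fold of 1.54 (1.32 to 1.79). Of 9 measured regulators, 8 were above 0, with a median of 0.24. At 1.5-fold or more, 1 gene was lower and 1 higher in each list, against 12.6% and 16.1% of all measured genes. Myc had 12536 counts in shGas6 and 5808 in shControl, a fold of 2.12 (2.06 to 2.19). The coactivator Ppargc1a was low in both libraries, at 6.75 CPM in shGas6 and 11.9 CPM in shControl, a fold of 0.566 (0.495 to 0.647). The factors named for the motifs above were also counted. Nrf1 had 2692 counts in shGas6 and 2125 in shControl, and Gabpa had 5208 in shGas6 and 4247 in shControl, both with intervals above 1. Yy1 had 6573 counts in shGas6 and 6393 in shControl, with an interval that held 1.

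**Figure D5:**
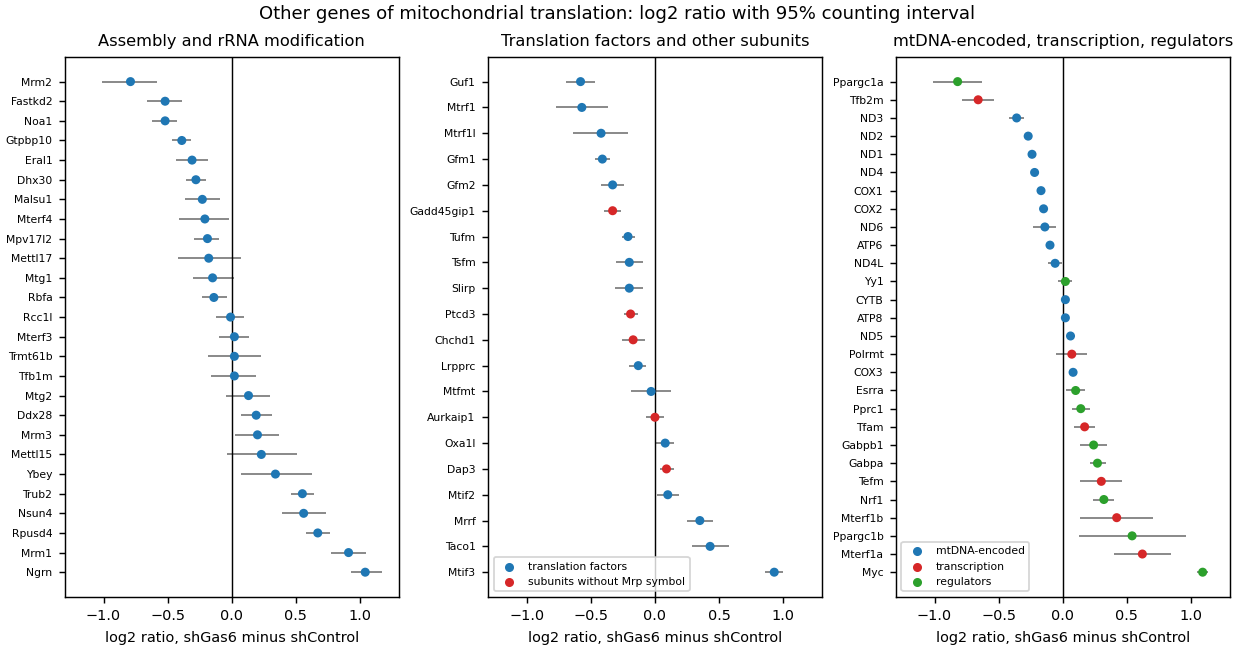
Log2 ratio (shGas6 minus shControl) with 95% counting interval of genes for ribosome assembly and RNA modification (left), translation factors with subunits lacking an Mrp symbol (middle), and mtDNA-encoded messages, mitochondrial transcription and regulators (right). Ngrn (1.04), Mtif3 (0.93) and Myc (1.09) were the highest of their panels.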

How the data were processed

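Poly(A) RNA of 2 YTN16 cultures was sequenced, 1 library each. Per the submitters' processing notes, Trimmomatic was used and the build was GRCm38 (mm10). The aligner, counting tool, strand setting and annotation were not given in the sources used here. Raw read counts, FPKM and TPM values per gene were deposited by the authors, per the file headers. Levels between genes are the authors' TPM, and ratios rest on the deposited counts.

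Counts were scaled with TMM (edgeR 4.0.16, R 4.3.3). The log2 ratio is that of scaled counts plus 0.5, shGas6 minus shControl, and folds omit the 0.5. Intervals are exact binomial (scipy 1.17.1). Genes were called measured when either library reached 1 CPM, and the floor for a count of 0 was 3 counts. Coordinates are from RefSeq on GRCm38.p6, matched for 78 of 78 members. Members and gene lists were chosen with earlier results of these data known. Any member could be named, and from other lists up to 4 genes with the largest ratio; the cell type markers, Tufm, Nrf1, Gabpa, Yy1, COX3, neighbours and partners were chosen after their values were seen. Simulated counts of 13055 genes were drawn with counting error alone (Poisson), the error that the interval assumes. On them the interval held the true fold for 94.6% of 12856 unchanged genes. This checks the calculation only, since PCR copies and differences between cultures were not simulated. Other settings were 3 scalings (total count, DESeq2 1.42.0, upper quartile), 5 in place of 0.5, TPM or FPKM plus 0.1, other filters and corrections for position. With 1 library a group, no test was made and culture-to-culture variation is unknown.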

Additional observations from a re-analysis of the deposited data

How the results depend on the processing

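No paired analysis was possible because each group has 1 library. The median log2 ratio stayed between -0.21 and -0.13 for all members, between -0.16 and -0.09 for Mrpl and between -0.33 and -0.21 for Mrps under 3 other scalings, 5 added in place of 0.5, TPM, FPKM, filters of 1 count and 5 CPM, subtraction of the chromosome median, placing by structure and 3 settings chosen after seeing the data (subtraction of the median of the 50 nearest genes, members off chromosome 1, and 45 members with no exon overlapping another gene). Of the counts, the 7 members at least 1.5-fold lower became 3 off chromosome 1 and 4 when the whole counting interval had to lie beyond 1.5-fold, and the 1 member at least 2-fold lower, Mrpl44, became 0 off chromosome 1 and 0 among members with no exon overlap, since those settings leave out genes or ask for more. The count of 7 was also 6 with DESeq2, 8 with upper quartile and 5 with TPM. It stayed at 7 with total count, with 5 added and with FPKM. The ratio of summed Mrpl to summed Mrps TPM was 2.25 in shGas6 and 2.21 in shControl by structure, as genes change sides. Of the 7 members, 3 were past 1.5-fold after subtraction of the chromosome median and 2 after that of the neighbours. Of 624 values of single members, 25 (in 14 members) had the other sign than the value reported. The counting interval held 1 for all of these except 4 values of 3 members. All 234 values under other scalings stayed within the counting interval, as each scaling shifts all genes by about the same amount. For the 3 members, the log2 ratio of Mrpl36 was 0.14 after subtraction of its chromosome median and 0.27 after that of its neighbours, that of Mrpl13 -0.11 with the chromosome median and that of Mrpl9 -0.15 with the neighbours. The medians subtracted are part of these values by construction. The median of all measured genes was -0.01 with TMM, -0.02 with total count, 0.01 with DESeq2 and -0.05 with upper quartile. Such shifts are small beside the counting intervals, so little change in single values could be seen under other scalings. Members close to the 1.5-fold mark could still cross it. The filters of 1 count and 5 CPM removed no member, and 5 added is small beside 551 counts. Those settings could hardly change the medians. Counting error alone was small at 551 to 6798 counts per member and library, and variation between cultures was not measured.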

Other observations

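The ribosomal RNAs of the mitochondrial ribosome were also counted, although poly(A) selection leaves their recovery uncertain, and they were chosen after their values were seen. The small subunit RNA, mt-Rnr1, had 8341 counts in shGas6 and 10727 in shControl, a fold of 0.764 (0.743 to 0.787). The large subunit RNA, mt-Rnr2, had 23608 counts in shGas6 and 16346 in shControl, a fold of 1.42 (1.39 to 1.45). Their ratios thus lay on opposite sides of 0, while the protein genes of both subunits had medians below 0.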
